A study of Mus musculus with 23 samples.

Results

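The crypt base stem cell markers Lgr5, Ascl2, Olfm4, Smoc2, Slc12a2, Cdca7, Rgmb, Tnfrsf19, Lrig1 and Hopx were followed as a group of 10 genes, chosen by symbol from the 54354 genes of the deposited table. All 10 were in the table, and together they held 13775 of its 24909732 counts. The tumours came from AKP organoids, cultured mouse intestinal tumour epithelium that carries a tdTomato label and a Basp1-eGFP-DTR allele, a reporter that ties Basp1 to a green fluorescent protein and to a receptor for diphtheria toxin. Organoids were placed in the colon wall of mice, the primary tumours were digested, and cells were sorted by green fluorescence. RNA of 12 GFP-negative and 11 GFP-positive libraries (genotype Basp1-GFP, tissue colon) was sequenced in bulk. Every group thus shares the AKP background and the reporter. The labels used here give no diet, age, sex or strain of the host, no number of organoid clones, and no statement that tdTomato was used in the sort, so cells of the host can be present in either population.

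The crypts of the intestine are renewed by columnar stem cells at the crypt base, which divide under WNT signals from the surrounding niche. LGR5 binds R-spondins and so strengthens WNT signalling in these cells, and ASCL2 is a transcription factor that maintains their identity; OLFM4, SMOC2 and several further transcripts mark the same cells. LRIG1 and HOPX have also been used to mark slower-cycling or reserve cells of the crypt. Loss of Apc, the A of AKP, makes WNT signalling independent of its ligands, and intestinal tumours can hold both cells with Lgr5 and cells in a revival state marked by Clu.

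Depth set what could be seen of these genes. Total counts ran from 25458 to 2304316 in GFP-negative libraries (median 144334) and from 37125 to 4238877 in GFP-positive libraries (median 1418140). The level that 3 counts would stand for, taken here as the detection limit of a library, was 1.302 to 118 CPM (a gene's counts divided by the library total, on the usual scale) in GFP-negative libraries, with a median of 20.96 CPM. In GFP-positive libraries it was 0.708 to 80.8 CPM, with a median of 2.12 CPM. GFP-negative 4, 5 and 12 and GFP-positive 4 held fewer than 100000 counts. The library numbers fell into 2 runs, called here library set 1 (6 GFP-negative, 5 GFP-positive) and library set 2 (6 and 6), a possible batch. The summed level of 8 epithelial markers was 2564 to 6511 CPM in GFP-negative and 3149 to 8655 CPM in GFP-positive libraries, with counts of at least 6 of the 8 in every library. Basp1, the reporter gene, had 0.0 to 83.8 CPM (median 27.7) in GFP-negative and 13.3 to 108 CPM (median 51.3) in GFP-positive libraries, so the transcript ranges overlapped; its log2 fold change was 0.63 (SE 0.38, edgeR adjusted p = 0.997). In such bulk samples a smaller number of cells with a transcript and less transcript per cell cannot be told apart.

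The 10 markers were expressed at very different levels. By pooled level per kilobase of transcript, both populations had the same 5 at the top, in the same order. Slc12a2 and Smoc2 alone made up 80.9% of the counts of the 10 genes. Per kilobase of the longest coding transcript, the level over all libraries pooled was 61.0 CPM for Smoc2, 42.1 for Slc12a2, 14.4 for Cdca7 and 7.84 for Tnfrsf19. Hopx followed at 4.90, Lgr5 at 2.73, Ascl2 at 2.65, Lrig1 at 1.74, Rgmb at 1.15 and Olfm4 at 0.158 CPM per kilobase. The steps from Slc12a2 to Cdca7 and from Cdca7 to Tnfrsf19 held in 18 and 16 of the 19 libraries with at least 100000 counts. Smoc2 lay above Slc12a2 in 14 of them and Tnfrsf19 above Hopx in 13, so the first place and the fifth were less settled. The neighbours in the lower part of the order did not separate: Hopx was above Lgr5 in 12, Lgr5 above Ascl2 in 11 and Ascl2 above Lrig1 in 10 of the 19 libraries, and in GFP-negative cells the pooled Ascl2 level (3.89) lay above that of Lgr5 (3.14). Clu, the revival marker, named with its values known, stood at 938 CPM per kilobase on the same scale.

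**Figure D1:**
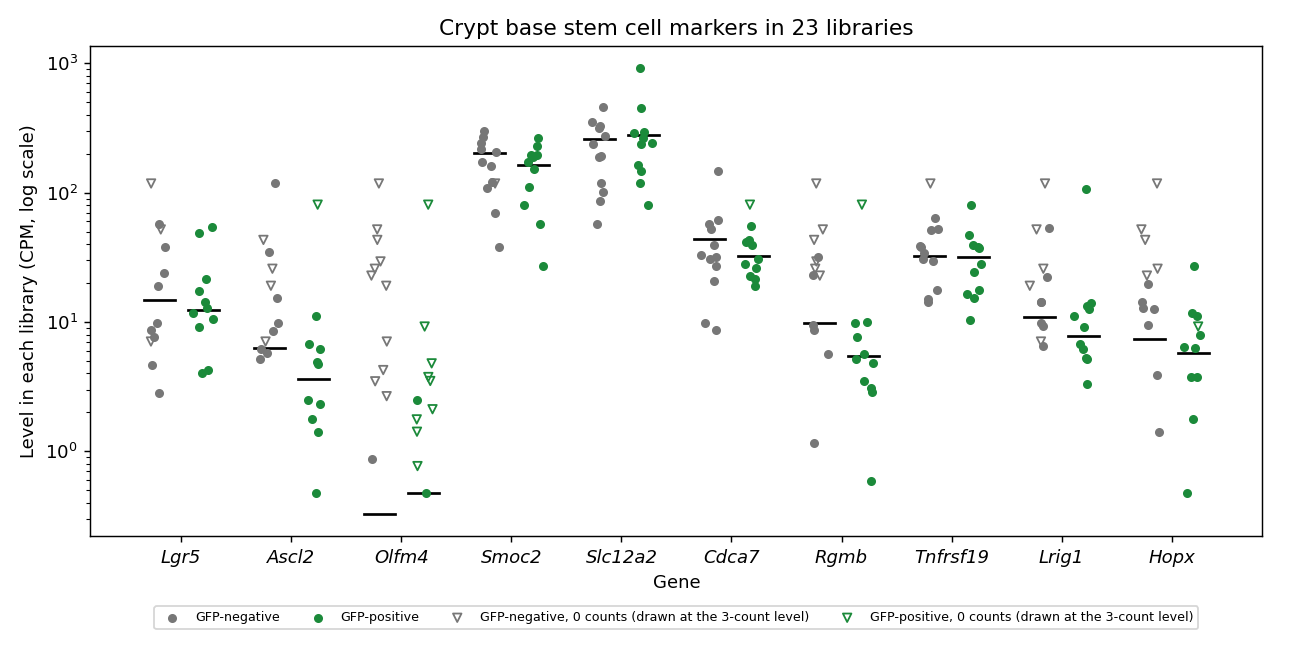
Level of each of the 10 markers in every library (vertical axis, CPM, log scale), grey for 12 GFP-negative and green for 11 GFP-positive libraries; bars show the pooled level of a group, and open triangles mark libraries with 0 counts at their 3-count level. The points of both groups overlap for each of the genes, Slc12a2 and Smoc2 lie highest, and Olfm4 has points above 0 in 3 libraries.

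Lgr5 (ENSMUSG00000020140, chromosome 10, 115450311 to 115587780 on mm10, minus strand), which encodes the R-spondin receptor, reached the 3-count limit in 5 of 12 GFP-negative and 10 of 11 GFP-positive libraries, and had at least 1 count in 9 and 11. In GFP-negative libraries it ran from 0.0 to 57.5 CPM with a median of 8.11, and in GFP-positive libraries from 4.01 to 53.9 CPM with a median of 12.8. The highest value of each group came from a library with fewer than 100000 counts, resting on 4 counts in GFP-negative 12 and 2 counts in GFP-positive 4. Summed over libraries, 90 counts in GFP-negative cells gave a pooled level of 14.8 CPM (95% exact Poisson interval 11.9 to 18.2). The 231 counts in GFP-positive cells gave 12.3 CPM (10.7 to 14.0). The libraries averaged 14.4 ± 17.8 CPM (SD, n = 12) and 18.9 ± 16.8 CPM (SD, n = 11), so the pooled level and the mean over libraries ordered the populations in opposite ways. The 3-count level was above the pooled level of the group in 7 of 12 GFP-negative libraries and in 1 of 11 GFP-positive libraries.

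Where depth was ample, Lgr5 still varied between GFP-positive libraries by more than counting error. GFP-positive 5 had 48.8 CPM from 39 counts (interval 34.7 to 66.7), whereas GFP-positive 1, the deepest library, had 4.01 CPM from 17 counts (2.34 to 6.42). GFP-positive 3 was as low, with 4.25 CPM from 9 counts. Among GFP-negative libraries, GFP-negative 6 and 9 had 19.1 and 24.0 CPM from 44 and 27 counts. GFP-negative 1 had 0 of 424846 counts, where 3 counts stand for 7.06 CPM and the interval reaches 8.68 CPM. The spread within a population was thus wider than the distance between the group medians. These intervals and the 3-count levels cover counting error only, because amplified reads that carry no molecular identifier do not stand for separate molecules.

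Ascl2 (ENSMUSG00000009248, chromosome 7, 142966829 to 142969264, minus strand), the stem cell transcription factor, rested on few counts: it had 3 or more in 5 of 12 GFP-negative and 5 of 11 GFP-positive libraries, and at most 19 in any. It ran from 0.0 to 118 CPM (median 6.01) in GFP-negative and from 0.0 to 11.2 CPM (median 2.50) in GFP-positive libraries. The value of 118 CPM was 3 counts in GFP-negative 5, the shallowest library; the mean over GFP-negative libraries, 16.9 ± 33.2 CPM (SD, n = 12), fell to 5.64 CPM without libraries under 100000 counts. The GFP-positive mean was 3.83 ± 3.31 CPM (SD, n = 11), and 4.22 CPM without those libraries. Pooled, Ascl2 had 6.25 CPM (4.42 to 8.58) from 38 counts in GFP-negative and 3.61 CPM (2.81 to 4.58) from 68 counts in GFP-positive cells. All 5 libraries without an Ascl2 count had a 3-count level above the pooled level of their group, so at this depth those zeros do not show a lower level.

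Olfm4 (ENSMUSG00000022026, chromosome 14, 79984081 to 80023139, plus strand), a secreted glycoprotein that marks stem cells of the small intestine and is little expressed in normal mouse colon, was all but undetected. It had 2 counts in GFP-negative 6, 2 in GFP-positive 1 and 7 in GFP-positive 2, and 0 in the other 20 libraries. All 3 belonged to library set 1, whereas the 11811108 counts of library set 2 held none, which allows up to 0.254 CPM. The pooled level was 0.329 CPM (0.0398 to 1.19) in GFP-negative and 0.478 CPM (0.219 to 0.907) in GFP-positive cells, below the 3-count level of every single library. GFP-positive 8, with 3903913 counts and a 3-count level of 0.769 CPM, had none, against 2.50 CPM (7 counts) in GFP-positive 2.

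Smoc2 (ENSMUSG00000023886, chromosome 17, 14279506 to 14404790, plus strand) encodes a secreted calcium-binding matrix protein that is enriched in crypt base stem cells and is also made by fibroblasts. Its level ran from 0.0 to 301 CPM (median 166) in GFP-negative and from 26.9 to 265 CPM (median 172) in GFP-positive libraries. The only library without a Smoc2 count was GFP-negative 5, where 3 counts would stand for 118 CPM. The groups averaged 159 ± 94.2 CPM (SD, n = 12) and 152 ± 74.8 CPM (SD, n = 11), and their ranges overlapped almost wholly. Without libraries under 100000 counts the lowest values were 38.1 CPM in GFP-negative 3 and 57.6 CPM in GFP-positive 3.

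The summed level of 10 fibroblast markers is given beside Smoc2, which fibroblasts also make. It ran from 150 to 8864 CPM (median 1794) in GFP-negative and from 0.0 to 2130 CPM (median 215) in GFP-positive libraries, and all 6 tested markers had a negative fold change, of which Fbln1 (log2 fold change -3.17, SE 0.54, edgeR adjusted p = 0.0119) passed the test and the marker with the most counts, Col3a1, did not (-2.04, SE 0.76). With 1 library left out, Fbln1 passed the expression filter in 12 of 23 fits and the test in all 12. By library set, the median sums were 187 CPM in GFP-negative and 153 CPM in GFP-positive libraries of set 1, where 0 of 4 tested markers were called (median log2 fold change -0.20), and 3244 and 414 CPM in set 2. Both libraries with the highest fibroblast sums had high Smoc2: GFP-negative 10 had a sum of 7254 CPM and the highest Smoc2 level, 301 CPM. GFP-negative 9, with the highest fibroblast sum of 8864 CPM, had 271 CPM of Smoc2. GFP-negative 8 and 11, with sums of 3214 and 3275 CPM, had 243.5 and 206 CPM. Below the medians of their groups lay GFP-negative 7, GFP-negative 1 and GFP-positive 1, with 109, 120 and 110 CPM of Smoc2. Their fibroblast sums were 2789, 2439 and 2130 CPM. GFP-positive 5, with a fibroblast sum of 153 CPM, had 265 CPM of Smoc2. GFP-positive 2 had 190 CPM of Smoc2 with a fibroblast sum of 80.6 CPM. Other libraries with low sums had low Smoc2: 26.9 CPM (1 count) in GFP-positive 4 with a sum of 0.0, 38.1 CPM in GFP-negative 3 with 159 CPM, and 57.6 CPM in GFP-positive 3 with 198 CPM. Libraries with low sums thus spanned nearly the whole range of Smoc2. The part of fibroblast RNA in the Smoc2 values was not tested.

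Slc12a2 (ENSMUSG00000024597, chromosome 18, 57878678 to 57946821, plus strand), which encodes the sodium-potassium-chloride cotransporter NKCC1, was the marker with the most counts and was detected in all 23 libraries. It ran from 57.5 to 457 CPM (median 216) in GFP-negative and from 80.8 to 918 CPM (median 243) in GFP-positive libraries, with means of 226 ± 123 CPM (SD, n = 12) and 292 ± 232 CPM (SD, n = 11). GFP-positive 9 stood apart at 918 CPM from 787 counts (855 to 984), above every other library. The next highest were GFP-negative 2 and GFP-positive 5, at 457 and 456 CPM, which share the identifier 7421 in their names. Without GFP-positive 9 the GFP-positive mean was 230 CPM.

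Cdca7 (ENSMUSG00000055612, chromosome 2, 72476159 to 72486893, plus strand), a cell division cycle associated nuclear protein, and Tnfrsf19 (ENSMUSG00000060548, chromosome 14, 60963875 to 61046490, minus strand), the TNF receptor family member TROY, were lower in CPM. Pooled over all libraries they had 35.0 and 31.75 CPM, beside 275 CPM for Slc12a2 and 173 CPM for Smoc2. Cdca7 ran from 8.61 to 146 CPM (median 32.5) in GFP-negative and from 0.0 to 54.8 CPM (median 28.2) in GFP-positive libraries. The only library without a Cdca7 count was GFP-positive 4, where 3 counts would stand for 80.8 CPM, so that zero does not show a lower level. Its highest value was 146 CPM from 23 counts in GFP-negative 3. GFP-negative 3 also had 38.1 CPM of Lgr5, 31.8 CPM of Rgmb and 63.5 CPM of Tnfrsf19, each above the median of its group, but low levels of Slc12a2 (102 CPM) and Smoc2 (38.1 CPM), so that Slc12a2 and Smoc2 made up 32.4% of the 10 markers there and up to 92.4% in other libraries of at least 100000 counts. In GFP-negative 3 a level of 19.1 CPM stood for 3 counts, and its Lgr5 and Rgmb values rested on 6 and 5 counts. Tnfrsf19 had group means of 32.1 ± 18.4 CPM (SD, n = 12) and 32.3 ± 20.03 CPM (SD, n = 11), and of 35.5 and 27.5 CPM without libraries under 100000 counts. It ran from 0.0 to 63.5 CPM in GFP-negative and from 10.4 to 80.8 CPM in GFP-positive libraries. The 0.0 was GFP-negative 5, where 3 counts would stand for 118 CPM, and the 80.8 CPM was 3 counts in GFP-positive 4.

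Rgmb (ENSMUSG00000048027, chromosome 17, 15803188 to 15831039, minus strand), a co-receptor for bone morphogenetic proteins, reached 3 counts in 5 of 12 GFP-negative and 8 of 11 GFP-positive libraries, and had at least 1 count in 6 and 10. All 7 libraries without a count had a 3-count level of 22.8 CPM or more, above the pooled levels of 9.87 CPM (7.53 to 12.7) in GFP-negative and 5.47 CPM (4.47 to 6.63) in GFP-positive cells. GFP-negative 9 held 26 of the 60 GFP-negative counts (23.1 CPM). The larger share of libraries with Rgmb counts in GFP-positive cells thus came with deeper libraries and a lower pooled level.

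Of the reserve cell markers, Lrig1 (ENSMUSG00000030029, chromosome 6, 94604529 to 94700158, minus strand), a membrane protein that restrains receptor tyrosine kinases of the ErbB family, reached 3 counts in 5 of 12 GFP-negative and 10 of 11 GFP-positive libraries, and had at least 1 count in 7 and 11. It ran from 0.0 to 53.3 CPM (median 7.89) in GFP-negative and from 3.31 to 108 CPM (median 9.22) in GFP-positive libraries. The value of 108 CPM was 4 counts in GFP-positive 4; without libraries under 100000 counts the means were 12.8 CPM in GFP-negative and 8.70 CPM in GFP-positive cells, an order opposite to that of the full means of 10.8 ± 15.3 CPM (SD, n = 12) and 17.7 ± 30.1 CPM (SD, n = 11). GFP-negative 1 had no Lrig1 count among 424846, and its 3-count level of 7.06 CPM lay below the pooled GFP-negative level of 11.02 CPM. Hopx (ENSMUSG00000059325, chromosome 5, 77086988 to 77115121, minus strand), an atypical homeodomain protein, reached 3 counts in 4 of 12 and 8 of 11 libraries and had at least 1 count in 7 and 10, with 0.0 to 19.6 CPM (median 2.66) and 0.0 to 26.9 CPM (median 6.35). The value of 26.9 CPM was 1 count in GFP-positive 4. Without libraries under 100000 counts the highest GFP-positive value of Hopx was 11.7 CPM. All 6 libraries without a Hopx count had a 3-count level above the pooled level of their group, so those zeros do not show a lower level. The pooled level of Hopx was 7.40 CPM (5.40 to 9.90) in GFP-negative and 5.79 CPM (4.75 to 6.98) in GFP-positive cells.

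**Figure D2:**
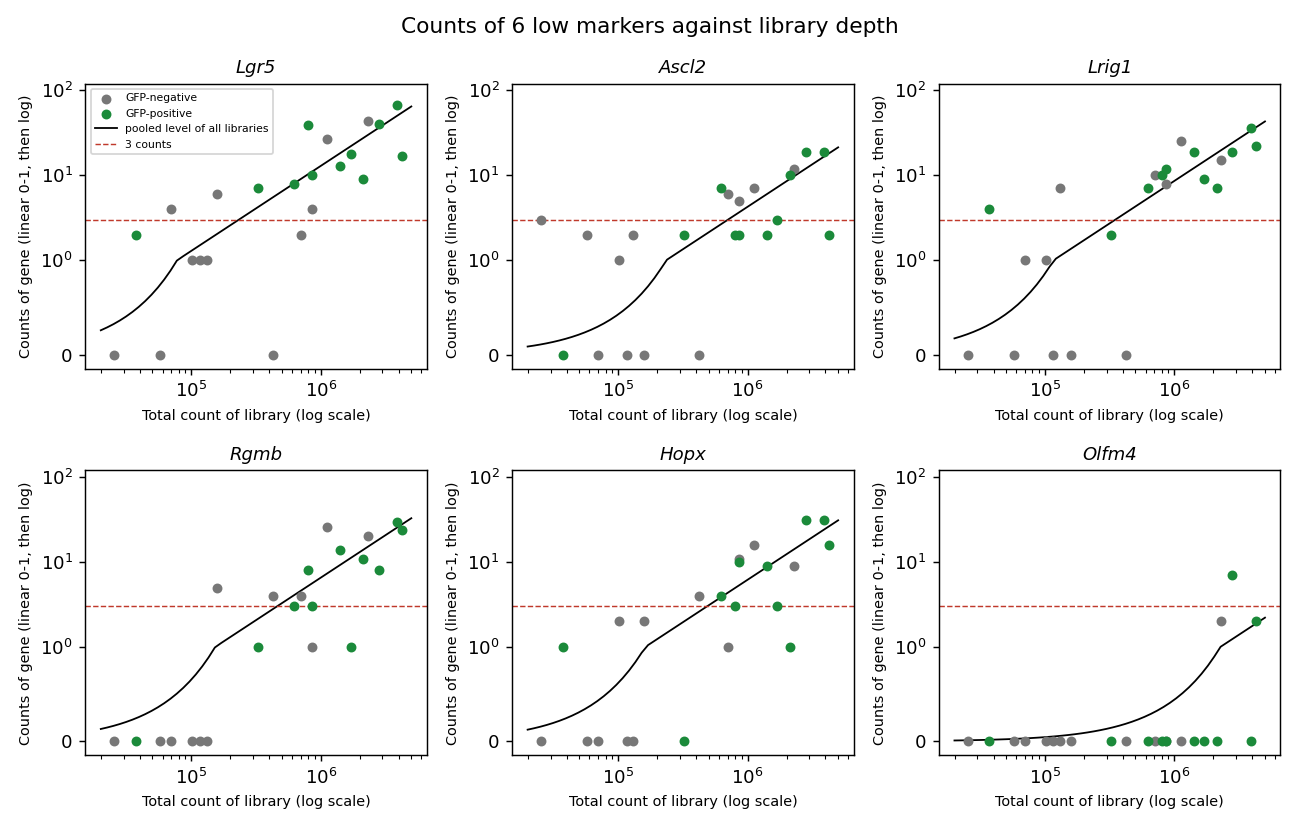
Counts of the 6 markers below the expression filter (vertical axis, linear to 1 and then log) against the total count of each library (horizontal axis, log scale); the line is the level pooled over all 23 libraries and the dashed line marks 3 counts. For the markers other than Olfm4, libraries at 0 lie mostly at the shallow end. The deepest of these is GFP-negative 1, with 424846 counts and none of Lgr5, Ascl2 or Lrig1. Olfm4 is at 0 in 20 of 23 libraries, shallow and deep, up to GFP-positive 8 with 3903913 counts.

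Whether these markers differ between the GFP-positive and GFP-negative sorted populations was tested in a fit over all genes. Smoc2, Slc12a2, Cdca7 and Tnfrsf19 passed the expression filter, and 0 of these 4 were called at an adjusted p under 0.05 by edgeR, with 0 at an unadjusted p under 0.05 and 0 called by DESeq2. Over all genes, edgeR called 1 of 6621, or 0.0151%, so a count of 0 among 4 genes does not set the markers apart from the background. Slc12a2 had a log2 fold change (GFP-positive over GFP-negative) of 0.34 (SE 0.34, edgeR adjusted p = 0.997), a fold of 1.27 with a 95% interval from 0.786 to 2.05. For Smoc2 it was -0.09 (SE 0.32), a fold of 0.942 (0.596 to 1.49). Cdca7 had -0.37 (SE 0.35), a fold of 0.773 (0.473 to 1.26), and Tnfrsf19 had -0.19 (SE 0.34), a fold of 0.874 (0.544 to 1.41), all 3 with an edgeR adjusted p of 0.997. The intervals thus leave room for a change of up to about 2.05-fold in Slc12a2 and for a fall of Cdca7 to 0.473 of its level. The median over the 4 markers was -0.14, beside 0.07 over all genes tested.

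Single libraries carried the largest of these values. Without GFP-positive 9 the log2 fold change of Slc12a2 was 0.02 in place of 0.34. Without GFP-negative 3 that of Cdca7 was -0.06 in place of -0.37. GFP-positive 3 held 31590 CPM of 12 macrophage markers, against 145 to 1107 CPM in the other 10 GFP-positive libraries and 408 to 6812 CPM in GFP-negative ones; without it Smoc2 had -0.0034, Slc12a2 0.39, Cdca7 -0.32 and Tnfrsf19 -0.10. Of the most counted markers of other cell types, Lgals4 of epithelium had 0.27 (SE 0.50), Flt1 of endothelium -0.28 (SE 0.47) and Acta2 of smooth muscle -1.31 (SE 0.67). Trbc1 of the T and NK cell list had 0.69 (SE 0.36), and none of these was called by edgeR. Only 1 of the 8 T and NK cell markers was tested, and each library had counts of only 1 to 3 of them. Trbc1 alone is therefore not read as a level of T cells. Lyz2 of macrophages had -0.06 (SE 0.95) over all libraries and was not called, but it was called without GFP-positive 3, at -3.06 (edgeR adjusted p = 0.0407), and in library set 2, at -3.66 (edgeR adjusted p = 0.0156). None of the 4 crypt base markers was called in any of the 23 fits that left out 1 library.

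Over all libraries, the 6 markers below the filter could be tested only in a fit with no filter on low counts. In that fit 1 of 23846 genes (0.00419%) and 0 of 10 markers were called by edgeR, and 0 of the 10 had an unadjusted p under 0.05. Lgr5 had a log2 fold change of 0.31 (SE 0.52, edgeR adjusted p = 0.842), with a fold interval from 0.601 to 2.55. Ascl2 had the lowest value, -1.03 (SE 0.72, adjusted p = 0.597), with an interval from 0.180 to 1.32, and it was -0.29 without libraries under 100000 counts. Without GFP-positive 5 the value of Lgr5 was -0.02, and without GFP-negative 5 that of Ascl2 was -0.56. Rgmb had -0.56 (SE 0.61), Hopx -0.25 (SE 0.62) and Lrig1 -0.05 (SE 0.55). Without GFP-negative 9 the value of Rgmb was -0.11, and leaving out GFP-positive 4 or GFP-negative 2 gave -0.33 or 0.32 for Lrig1. For Olfm4, at 0 counts in 20 of 23 libraries and at 3 or more only in GFP-positive 2, the fitted value of 0.66 (SE 0.93) depends on the prior count and is not read as a fold change. At these depths the populations could differ by 2.55-fold in Lgr5, or Ascl2 could be at 0.180 of its GFP-negative level in GFP-positive cells, without passing.

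**Figure D3:**
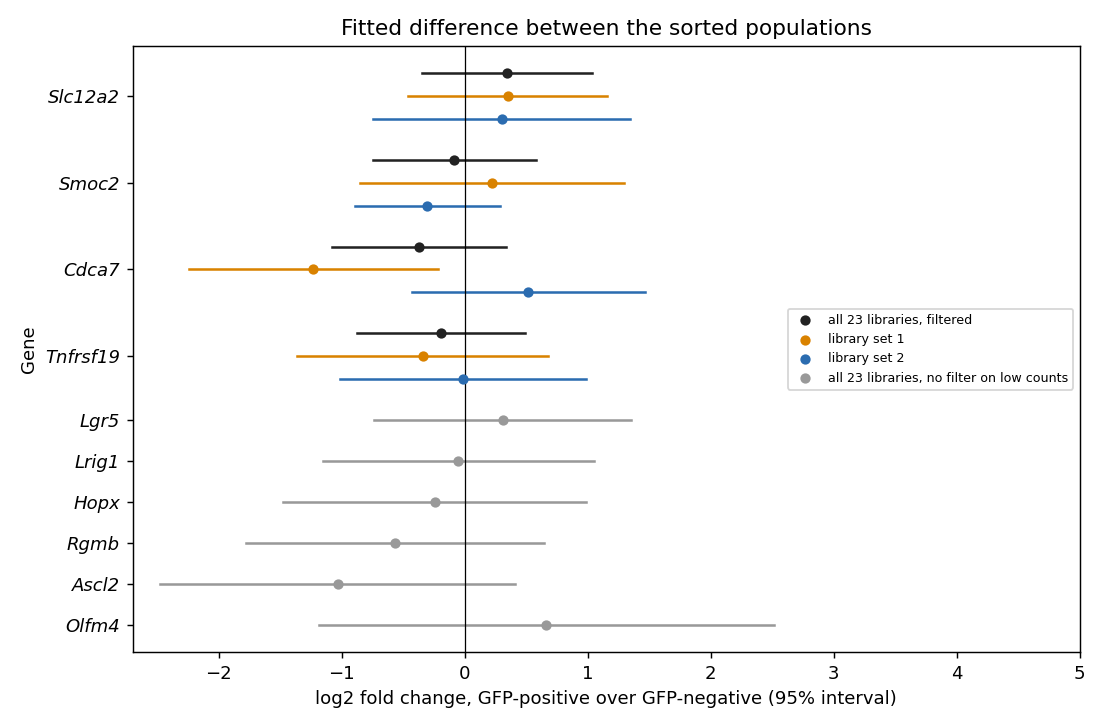
Fitted log2 fold change of each marker (horizontal axis, GFP-positive over GFP-negative) with its 95% interval; black, all 23 libraries with the expression filter; orange, library set 1; blue, library set 2; grey, all libraries with no filter, for the 6 markers that did not pass it. All intervals cross 0 except that of Cdca7 in library set 1, from -2.242 to -0.22, which did not pass after adjustment.

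Within the library sets, Slc12a2 kept a value near the pooled one and Cdca7 did not. In library set 1, 0 of 5256 genes (0%) and 0 of 4 markers were called by edgeR, with 284 genes and 1 marker at an unadjusted p under 0.05. In library set 2, 89 of 6952 genes (1.28%) were called, 3 of them higher (0.0432%) and 86 lower (1.24%), and 0 of 4 crypt base markers, with 0 of them at an unadjusted p under 0.05. Slc12a2 had 0.35 (SE 0.39) and 0.30 (SE 0.48) in the sets, Smoc2 0.22 (SE 0.51) and -0.31 (SE 0.29), and Tnfrsf19 -0.34 (SE 0.49) and -0.02 (SE 0.49). Without GFP-positive 9, Slc12a2 had -0.32 in library set 2. Markers of other cell types moved in set 2: edgeR called 8 of 9 tested macrophage markers lower in GFP-positive cells (median log2 fold change -3.66) and 4 of 8 fibroblast markers lower (median -2.93). The summed macrophage level there was 2451 to 6510 CPM in GFP-negative and 145 to 855 CPM in GFP-positive libraries. In set 1 all 8 tested macrophage markers had a positive fold change (median 1.67) and 0 were called. That set holds GFP-positive 3, with 31590 CPM of macrophage markers. The median macrophage sum of set 1 was 1044 CPM in GFP-negative and 404 CPM in GFP-positive libraries, so it was lower in GFP-positive libraries there too. The part of these cells in the values of the crypt base markers was not tested.

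Cdca7 was lower in GFP-positive cells of library set 1 by 1.23 on the log2 scale, without passing the test (log2 fold change -1.23, SE 0.49, unadjusted p = 0.0191, edgeR adjusted p = 0.894), and in library set 2 it had 0.52 (SE 0.46, edgeR adjusted p = 0.907). In set 1 its level was 30.5 to 146 CPM (median 45.6, n = 6) in GFP-negative and 0.0 to 43.1 CPM (median 22.6, n = 5) in GFP-positive libraries. The 0.0 was GFP-positive 4, and without libraries under 100000 counts the lowest GFP-positive level of set 1 was 18.9 CPM. In set 2 it was 8.61 to 57.5 CPM (median 23.9, n = 6) and 21.5 to 54.8 CPM (median 35.1, n = 6). The difference between the sets was 1.74 (SE 0.69, unadjusted p = 0.0152, edgeR adjusted p = 0.568), so it did not pass in a test in which 0 of 8698 genes (0%) were called, with 585 at an unadjusted p under 0.05. Without GFP-negative 3 the set 1 value was -0.76 and the difference between sets 1.295. Lgr5 also passed the expression filter in the fit of the difference between the sets, at -0.52 (SE 1.11, edgeR adjusted p = 0.987).

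The levels of 10 proliferation genes are given beside Cdca7. Their sum was 489 to 1325 CPM (median 1132) in GFP-negative and 388 to 673 CPM (median 571) in GFP-positive libraries of set 1, with 7 of 7 tested genes at a negative fold change and 0 called. In set 2 the medians were 636 and 492 CPM, with 7 of 10 tested genes negative (median log2 fold change -0.20) and 0 called, while Cdca7 had a positive value there. GFP-negative 3, highest for Cdca7, had a proliferation sum of 1207 CPM. The part of proliferation in the Cdca7 values was not tested.

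Libraries that share an identifier at the start of their names may come from 1 source, although the labels do not say so. The names of GFP-negative 4 and GFP-negative 5 open with different identifiers, and the name of GFP-positive 4 joins both. These libraries were given 1 identifier here, which is among the 10 below. GFP-negative 3, the library highest for Cdca7, has an identifier that no GFP-positive library shares. Of 10 identifiers with both populations, Slc12a2 was higher in GFP-positive cells in 3 and lower in 7, and Smoc2 likewise in 3 and 7. The Slc12a2 ratio of GFP-positive to GFP-negative CPM ran from 0.433 in identifier 7914 to 4.64 in identifier 7968, where the GFP-negative library held 4 counts of the gene; in 7421 it was 0.997, and in 7907, the identifier of GFP-positive 9, it was 2.81. The median ratio was 0.830, below 1, while the fold fitted over libraries was 1.27. Smoc2 ratios ran from 0.265, for GFP-negative 6 and GFP-positive 3, to 1.66 in 7421 over the 9 identifiers with at least 3 counts in both populations, with a median of 0.916. Lgr5 had at least 3 counts in both populations in 4 identifiers only, and the ratio was over 1 in 1 of these, at 3.01 for GFP-negative 8 and the summed GFP-positive 2 and 7.

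**Figure D4:**
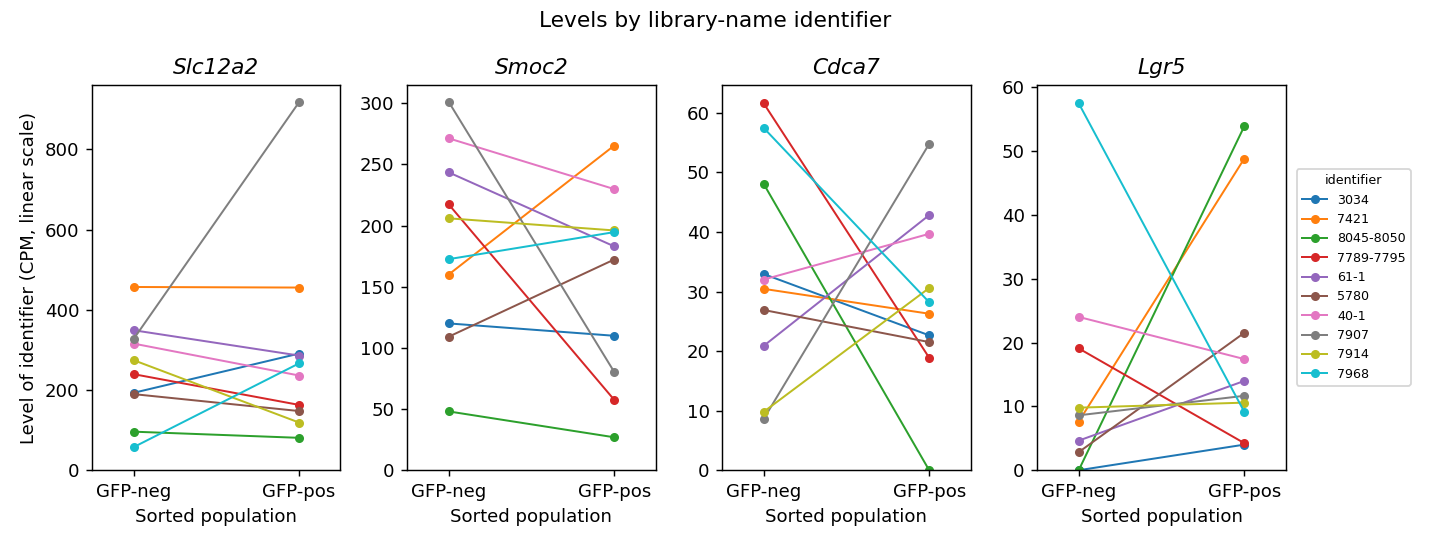
Level of 4 markers (vertical axis, CPM, linear) in the GFP-negative and GFP-positive population of each of 10 library-name identifiers, joined by a line. Libraries that share an identifier and a population were summed, as were GFP-negative 4 and GFP-negative 5, counted as 1 identifier with GFP-positive 4. Lines run in both directions for each gene, with Slc12a2 higher in GFP-positive cells in 3 of 10 identifiers and Lgr5 in 7 of 10, 6 of these 7 on fewer than 3 GFP-negative counts.

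Other genes of the crypt base and its WNT receptors showed no called member either. Of 20 further crypt base genes, 12 were tested, 9 had a positive and 3 a negative fold change, and 0 were called, with a median of 0.20 beside 0.07 over all genes. Cd44, a cell surface receptor of WNT-driven crypt cells and the most counted of them, had 0.44 (SE 0.24, edgeR adjusted p = 0.996). Of 10 genes for LGR receptors, R-spondins and their partners, 3 were tested and 0 called, and Rnf43, a ubiquitin ligase that removes WNT receptors and is antagonised by R-spondin, had -0.02 (SE 0.35). Of 15 revival and fetal-like genes, all 15 were tested, 13 had a positive fold change and 0 were called, with a median of 0.30. S100a6, the most counted of them, had 0.16 (SE 0.15). Colonocyte genes had 6 of 8 and secretory genes 8 of 9 tested members with a positive fold change, and 0 called in either list; in library set 1 each list had 3 of 6 positive, with medians of 0.03 and 0.01 beside 0.05 over all genes. Lypd8, a colonocyte surface protein, had 0.52 (SE 0.60) and the goblet cell gene Spink4 0.30 (SE 0.73). Of the proliferation list, 8 of 9 tested genes lay below 0 (median log2 fold change -0.73) and 0 were called; Pcna, a DNA replication clamp, had -0.37 (SE 0.19, edgeR adjusted p = 0.996).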

How the data were processed

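Bulk RNA sequencing of 23 mouse libraries was analysed. TRIzol and column purification preceded directional poly(A)-selected library preparation, per the labels' protocols, which name organoids as the RNA source while the design text names digested tumours. The authors made expected counts (estimated counts per gene, deposited as whole numbers) with Salmon 1.3.0 on mm10, per the submitters' processing notes, and the sources used here do not give the annotation or options.

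CPM are counts over the library total. The fits used edgeR 4.0.16 under R 4.3.3, with TMM factors, the filterByExpr filter, a robust quasi-likelihood model without covariates and Benjamini-Hochberg adjustment over every tested gene at 0.05. The code was tested on simulated data. Intervals of fold changes are 95% t intervals. DESeq2 1.42.0 was an alternative, as were blocks, filters, scalings and fits with 1 library left out. Pooled levels are summed counts over summed totals, with 95% exact Poisson intervals (scipy 1.17.1), and the detection limit was 3 counts. Depth per library, and with it the precision, varied as described above. Positions and lengths came from GENCODE M21 (mm10). Libraries were grouped by the GFP status in their titles. No label ties libraries to separate animals, and the p-values reflect only how far these libraries spread, which may be technical.

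The members, lists and tests were chosen with earlier results of these data known. Named genes were the 10 members, Basp1, for each gene list its called members (at most 3) or else its most counted member, and for each cell type list both; Clu was added after its values were seen.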

Additional observations from a re-analysis of the deposited data

Results flagged for a closer look

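In 38 groups of 5 or 6 libraries (each marker in each population of each library set), a single library lay far from the rest in 9 by a gap test. Olfm4 in set 2 gave no test in either population, since every library was at 0. Chance flags about 1 in 20 groups of normally distributed values, a rate that need not hold for CPM of libraries of unequal depth. It does not hold for levels made of a few counts, such as those of Olfm4, Ascl2 and Lrig1. The flagged Slc12a2 value was 918 CPM in GFP-positive 9, from 787 counts, against 267 CPM in the next library of its set. Cdca7 was flagged at 146 CPM (23 counts) in GFP-negative 3, against 61.6 CPM in the next, and Rgmb in the same library at 31.8 CPM (5 counts) against 9.42 CPM. Rgmb was also flagged at 23.1 CPM (26 counts) in GFP-negative 9, against 5.67 CPM. Lrig1 was flagged at 53.3 CPM (7 counts) in GFP-negative 2 and at 108 CPM (4 counts) in GFP-positive 4, and Ascl2 at 118 CPM (3 counts) in GFP-negative 5. The Olfm4 flags were 0.868 CPM (2 counts) in GFP-negative 6 and 2.50 CPM (7 counts) in GFP-positive 2.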

How the results depend on the processing

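No marker was called by edgeR or DESeq2 under any of the alternatives run for the 4 comparisons. The count of genes called in all libraries was 1, and it was 24 with DESeq2, 3 with a replicate block by identifier, 2 with a replicate block by title number, and 0 to 16 with 1 library left out, the highest without GFP-positive 3. In library set 2 it was 89, and it was 375 with no filter on low counts, 140 with a replicate block by identifier and 65 to 118 with 1 library left out. In library set 1 it was 0, and 0 to 6 with 1 library left out. For the difference between sets it was 0, and 1 with no filter and 0 to 20 with 1 library left out. Same-identifier libraries deviated together (correlation over 0.1) in 5 of 12 pairs and same-numbered ones in 2 of 11. The 12 pairs include GFP-negative 4 and GFP-negative 5, each with GFP-positive 4, whose name joins the identifiers of both. Unmatched pairs were not set beside these, and several pairs held a library under 100000 counts. The correlations thus cannot decide whether libraries are paired. The labels give no pairing, so the block was an alternative only. Apart from the counts above, the block changed no marker's call. Signs of uncalled values that turned were these: with no filter, Smoc2 0.050, Rnf43 0.092, Lyz2 0.068 and, in set 2, Tnfrsf19 0.14; with the identifier block, Rnf43 0.31, Lgals4 -0.032, in set 1 Smoc2 -0.49 and Slc12a2 -0.040, and without filter Rgmb 0.19 and Lrig1 0.065; with the title-number block, Rnf43 0.14 and Lgals4 -0.062; with library set as a covariate, Rnf43 0.0059; and without libraries under 100000 counts, Lyz2 0.014 and the set difference of Lgr5 0.21. The cause was not tested. With 1 library left out, ranges that crossed 0 were -0.18 to 0.011 for Smoc2, -0.16 to 0.10 for Rnf43, -0.014 to 0.50 for Lgals4, -3.06 to 0.17 for Lyz2 (called without GFP-positive 3) and -0.53 to 0.0049 for Flt1. In the sets they were -0.13 to 0.60 for Smoc2 in set 1, and -0.32 to 0.47 for Slc12a2 and -0.25 to 0.27 for Tnfrsf19 in set 2. For the set difference they were -1.03 to 0.37 for Lgr5 and -0.67 to 0.22 for Slc12a2, and without filter -0.023 to 0.52 for Lgr5, -0.62 to 1.97 for the fitted value of Olfm4, which is not read as a fold change, -0.33 to 0.32 for Lrig1 and -0.41 to 0.0076 for Hopx. Depth limits the 6 low markers most: 3 counts stood for more than the pooled Lgr5 level in 7 of 12 GFP-negative libraries.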
